A study of Mus musculus with 4 samples.

Results

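The genes described here are 10 growth-arrest genes in brown adipose tissue (BAT): Gadd45a, Gadd45b and Gadd45g of the GADD45 family, the CIP/KIP inhibitors Cdkn1a, Cdkn1b and Cdkn1c, the anti-proliferative factors Btg1 and Btg2, the tumor suppressor gene Trp53 and its ubiquitin ligase Mdm2. They were chosen by name, with the AP and vehicle signals of these same 4 mice known, out of 20145 genes that could be named on the array. All 10 had at least 1 probe that passed the filter on dim signals, as did 12790 named genes in all. Because that comparison guided the choice, the values of these genes between AP and vehicle are given as a description.

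BAT came from male transgenic (Tg) mice, 8 weeks old, that carry Fv2E-PERK under the mouse aP2 (Fabp4) promoter in the C57/BL6N background. Fv2E-PERK joins the kinase domain of PERK to a module that pairs when it binds the dimerizer AP20187 (AP), so that AP starts the phosphorylation of eIF2α, the first step of the integrated stress response (ISR), without an outside stress. Besides adipocytes, macrophages also use the aP2 promoter. The mice received AP or vehicle in the peritoneum, and BAT was collected 12 h later. The labels give the AP dose as 1 ng/g and the legend of the study as 0.05 mg/kg, and these doses do not match. Each group held 2 mice, and each mouse had its own one-color array. All 4 mice carried the transgene and no mouse without it was analysed here, so an effect of AP itself cannot be told apart from that of the kinase.

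The 3 GADD45 proteins are small stress-inducible partners of other proteins. They bind the kinase upstream of p38 and JNK, the CDK1 and cyclin B complex, and PCNA, and they have been linked to the removal of DNA methylation. CIP/KIP proteins bind and inhibit cyclin-dependent kinases, BTG proteins recruit the CCR4-NOT deadenylase that shortens mRNA tails, and p53 activates several of these genes after DNA damage. Gadd45a and Cdkn1a are textbook p53 targets, and Gadd45a is also a known target of the ISR factor ATF4.

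The windows before the gene starts are shown for the 3 GADD45 genes and Cdkn1a, since 3 of these 4 genes had the largest differences among the members and Gadd45b is their relative whose groups overlapped. Each window holds 250 bases upstream of a start given by RefSeq, in build GRCm38.p6, written 5′ to 3′ on the strand of the gene. Capitals mark a CCAAT box, a p53 half-site or, in Gadd45g, a C/EBP-ATF response element (CARE), the kind of composite site that ATF4 is known to bind. The window of Gadd45a is chr6:67037408-67037657 on the minus strand, that of Gadd45b is chr10:80929841-80930090 on the plus strand and that of Gadd45g is chr13:51846425-51846674 on the plus strand. Cdkn1a has more than 1 start, and the window of its upstream start is chr17:29090729-29090978 on the plus strand.
Gadd45a: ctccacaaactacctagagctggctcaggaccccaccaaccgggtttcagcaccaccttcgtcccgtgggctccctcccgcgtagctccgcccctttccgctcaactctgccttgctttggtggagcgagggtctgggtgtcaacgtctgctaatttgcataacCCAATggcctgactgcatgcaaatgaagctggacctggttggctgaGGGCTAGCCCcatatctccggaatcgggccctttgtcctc
Gadd45b: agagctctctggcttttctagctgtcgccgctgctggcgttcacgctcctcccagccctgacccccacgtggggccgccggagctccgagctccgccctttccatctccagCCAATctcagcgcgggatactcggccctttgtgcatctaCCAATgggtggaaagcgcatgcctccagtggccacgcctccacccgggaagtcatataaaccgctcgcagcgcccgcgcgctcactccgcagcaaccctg
Gadd45g: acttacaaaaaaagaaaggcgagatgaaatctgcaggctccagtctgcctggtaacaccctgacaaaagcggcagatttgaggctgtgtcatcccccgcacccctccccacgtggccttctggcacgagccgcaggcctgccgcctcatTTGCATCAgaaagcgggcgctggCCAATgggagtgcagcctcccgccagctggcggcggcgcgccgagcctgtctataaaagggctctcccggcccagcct
Cdkn1a: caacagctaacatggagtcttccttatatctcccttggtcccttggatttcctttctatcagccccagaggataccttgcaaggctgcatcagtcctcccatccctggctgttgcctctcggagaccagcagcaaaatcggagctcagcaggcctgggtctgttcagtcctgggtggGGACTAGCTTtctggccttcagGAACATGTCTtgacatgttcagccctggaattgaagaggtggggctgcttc

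A search of both strands for the CARE letters TGATGNAA found them in the window of Gadd45g alone among 9 member genes with a window (none was at hand for Cdkn1c), on the minus strand from position -101 to -94, counted back from the start. The same letters stood in 3.45% of 32851 promoter windows of this length. The window of Gadd45a held no CARE. It held a CCAAT box at -86 to -82 and a p53 half-site at -40 to -31. The upstream Cdkn1a window held 2 p53 half-sites, at -73 to -64 and at -51 to -42. The window of its other start, chr17:29093519-29093768 on the plus strand, held none and also no CCAAT box or CARE. Half-sites also lay in the windows of Mdm2 and Trp53. A half-site was found in 7.13% of all windows, against 4 of the 10 windows of the 9 member genes. A CCAAT box was found in 33.8% of all windows, against 8 of those 10. These matches describe letters in a short window and not binding, and the motifs were chosen with the array results known.

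On the 4 arrays 46.4 to 49.0% of spots were well above background and no spot was saturated. The 75th percentile of the unscaled signal was 158.7 for vehicle replicate 2, above the 118.5 to 127.6 of the other arrays. Signals are given as log2 of the processed signal minus the log2 75th percentile of the same array, so that 0 is the level of that percentile, and an AP minus vehicle difference on this scale is a log2 fold change. Levels of different genes cannot be ranked on this scale because probes differ in brightness. Each gene is represented by its brightest probe. Ucp1, the uncoupling protein that defines brown fat, lay between 9.66 and 10.41 in all 4 mice. It is 1 of 10 brown adipocyte markers, and not all of them were so even. Elovl3 was at 6.08 and -1.07 in vehicle replicates 1 and 2 and at 3.52 and 5.76 in AP replicates 1 and 2. In the same order Dio2 was at 0.49 and 1.53 with vehicle and at -1.78 and 3.33 with AP. The vehicle mice also differed from each other in markers of other cells. Summed over 12 skeletal muscle markers, the linear signal in multiples of the 75th percentile was 100.4 in vehicle replicate 1, 1219 in vehicle replicate 2, 778.9 in AP replicate 1 and 450.4 in AP replicate 2. Summed over 10 measured leukocyte markers of 13, it was 51.3 and 165.6 in the vehicle mice against 60.2 and 57.2 in the AP mice, and each of the 10 was higher in vehicle replicate 2 than in vehicle replicate 1. Summed over 8 measured macrophage markers of 10, it was 38.9 and 54.4 in the vehicle mice against 32.4 and 30.4 in the AP mice. In whole tissue, fewer cells of a type and less RNA per cell cannot be told apart.

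Of the 10 members, 5 had both AP mice above both vehicle mice: Gadd45a, Gadd45g, Cdkn1a, Cdkn1b and Btg1. No member had both AP mice below, and in the other 5 the groups overlapped. Over the 12790 named genes, 20.1% had both AP mice above and 17.3% had both below, and the groups did not overlap in 37.4%. On average 6 members were higher and 4 lower with AP, against 51.4% of named genes that were higher, and 3 members were at least 2-fold higher, against 2.74%. An unadjusted limma p under 0.05 was reached by 4 members (Gadd45a, Gadd45g, Cdkn1a and Btg1), against 6.04% of named genes. After Benjamini-Hochberg adjustment over 24970 probes no member passed, with a smallest adjusted limma p of 0.80, and no probe did (0.0%), while 1515 probes (6.07%) had an unadjusted p under 0.05. For any single gene, an exact two-sided permutation test of 2 against 2 mice cannot give a p below 0.333. The median log2 fold change of the members was 0.35, against 0.011 over all named genes.

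**Figure D1:**
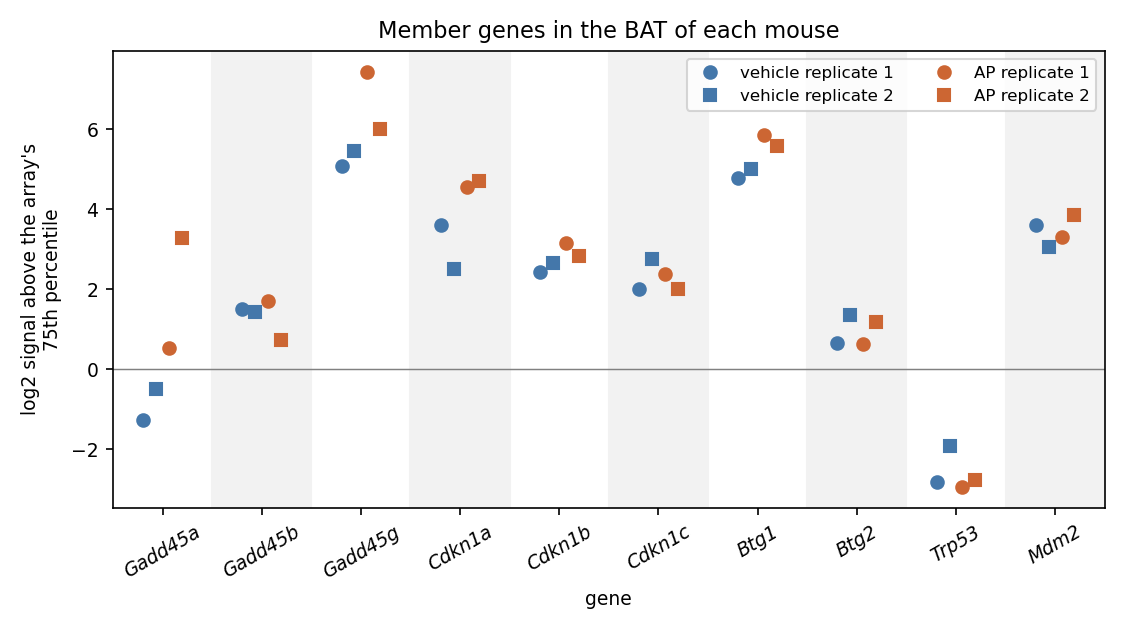
Signal of the 10 member genes in the BAT of each mouse, as log2 above the array's 75th percentile (vertical axis), with 1 point per mouse, blue for vehicle and orange for AP. Both orange points lie above both blue points for Gadd45a, Gadd45g, Cdkn1a, Cdkn1b and Btg1, and the AP mice are 2.77 apart for Gadd45a.

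Gadd45a encodes a damage-inducible protein that activates p38 and JNK signaling and blocks the entry into mitosis. Its log2 level was -1.27 in vehicle replicate 1, -0.49 in vehicle replicate 2, 0.53 in AP replicate 1 and 3.29 in AP replicate 2, and values of other genes follow in this order of the mice. Both AP mice lay above both vehicle mice, but AP replicate 2 stood far above AP replicate 1. The mean was -0.88 ± 0.55 (SD, n = 2) with vehicle and 1.91 ± 1.96 (SD, n = 2) with AP, so the log2 fold change was 2.79 ± 0.97 (SE), or 6.93-fold. This was the largest difference among the members and rank 11 of the rises among named genes. The difference between the AP mice, 2.77, was larger than that of 99.8% of named genes. Against the vehicle mice, AP replicate 1 was higher by 1.80 and 1.02 on the log2 scale and AP replicate 2 by 4.57 and 3.79. Without AP replicate 2 the log2 fold change was 1.41, and without AP replicate 1 it was 4.18.

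Gadd45b, whose product is best known as a partner of the JNK kinase MKK7 and an NF-κB target, did not separate the groups. Its log2 level was 1.51 and 1.44 in the vehicle mice and 1.71 and 0.74 in the AP mice. AP replicate 1 was the highest of the 4 mice and AP replicate 2 the lowest, so the groups overlapped, with a log2 fold change of -0.25 ± 0.38 (SE). Without AP replicate 2 its sign turned, to 0.23.

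Gadd45g encodes the third family member, known for its part in p38 signaling and growth arrest. The log2 level of Gadd45g was 5.10 and 5.46 in the vehicle mice and 7.45 and 6.02 in the AP mice. Both AP mice were higher, and here AP replicate 1 was the higher of the pair, opposite to Gadd45a. The mean was 5.28 ± 0.26 (SD, n = 2) with vehicle and 6.74 ± 1.01 (SD, n = 2) with AP, so the log2 fold change was 1.46 ± 0.53 (SE), or 2.74-fold. The AP mice differed by 1.43, more than in 97.3% of named genes. Without AP replicate 1 the log2 fold change was 0.74, and without AP replicate 2 it was 2.17. The 3 paralogs therefore gave 3 orders of the AP mice against vehicle: AP replicate 2 highest for Gadd45a, AP replicate 1 highest for Gadd45g, and the AP mice on either side of the vehicle mice for Gadd45b. None of these orders was tested.

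Cdkn1a encodes p21, the CDK inhibitor that p53 is best known to induce. The array holds 10 spots of its main probe, so the spot error can be seen: the SD between spots of the same array was 0.035 to 0.055. The mean log2 level of Cdkn1a was 3.61 and 2.50 in the vehicle mice, over 9 and 10 spots, and 4.56 and 4.72 in the AP mice, over 10 spots each. The AP mice lay 0.16 apart and above both vehicle mice, while vehicle replicate 2 was lower than vehicle replicate 1 by 1.11, many times the SD between spots. The log2 fold change was 1.59 ± 0.42 (SE), or 3.0-fold. Leaving out vehicle replicate 2 gave 1.03, and leaving out vehicle replicate 1 gave 2.14. A second Cdkn1a probe, for another transcript variant, was not well above background on any array.

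Cdkn1b encodes p27, which holds quiescent cells in G1. Its log2 level was 2.43 and 2.66 in the vehicle mice and 3.15 and 2.85 in the AP mice, with the groups apart by 0.19. The log2 fold change was 0.46 ± 0.23 (SE), or 1.37-fold, and it stayed between 0.31 and 0.61 when each mouse was left out in turn. Cdkn1c, an imprinted gene for p57, overlapped between groups, at 2.02 and 2.75 with vehicle and 2.38 and 2.0 with AP, and the log2 fold change was -0.20 ± 0.34 (SE). Among the 3 CIP/KIP genes, both AP mice were thus on top for Cdkn1a and Cdkn1b and not for Cdkn1c, and the difference between these genes was not tested.

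Btg1 is a member of the BTG/TOB family that is abundant in resting cells. Its main probe read 4.79 and 5.0 on the log2 scale in the vehicle mice and 5.87 and 5.58 in the AP mice. All 4 mice stood close to their group mean, and the groups were 0.58 apart, with a log2 fold change of 0.83 ± 0.23 (SE), or 1.77-fold, and 0.68 to 0.97 when each mouse was left out. A second Btg1 probe was far dimmer and well above background on only 3 of the 4 arrays. It did not separate the groups. This dim probe read -3.01 and -2.78 with vehicle and -3.57 and -2.73 with AP, with a log2 fold change of -0.25 ± 0.35 (SE). The mean of both probes gave a log2 fold change of 0.29 for Btg1. Btg2, its p53-inducible relative, was at 0.65 and 1.37 with vehicle and 0.64 and 1.20 with AP, so that replicate 2 was the higher mouse in both groups and the groups overlapped (log2 fold change -0.09 ± 0.36, SE).

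Trp53, the gene of p53 itself, was measured by a dim probe with 2 spots on each array. Its log2 level was -2.81 and -1.90 in the vehicle mice and -2.94 and -2.78 in the AP mice. Vehicle replicate 2 was the highest, and the other 3 mice lay close together, with a log2 fold change of -0.50 ± 0.36 (SE) that was -0.044 without vehicle replicate 2. Mdm2 encodes the ligase that degrades p53 and is itself a p53 target. It was at 3.61 and 3.05 with vehicle and 3.32 and 3.85 with AP, and the groups overlapped (log2 fold change 0.25 ± 0.32, SE). The protein activity of p53 is not measured by these arrays.

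**Figure D2:**
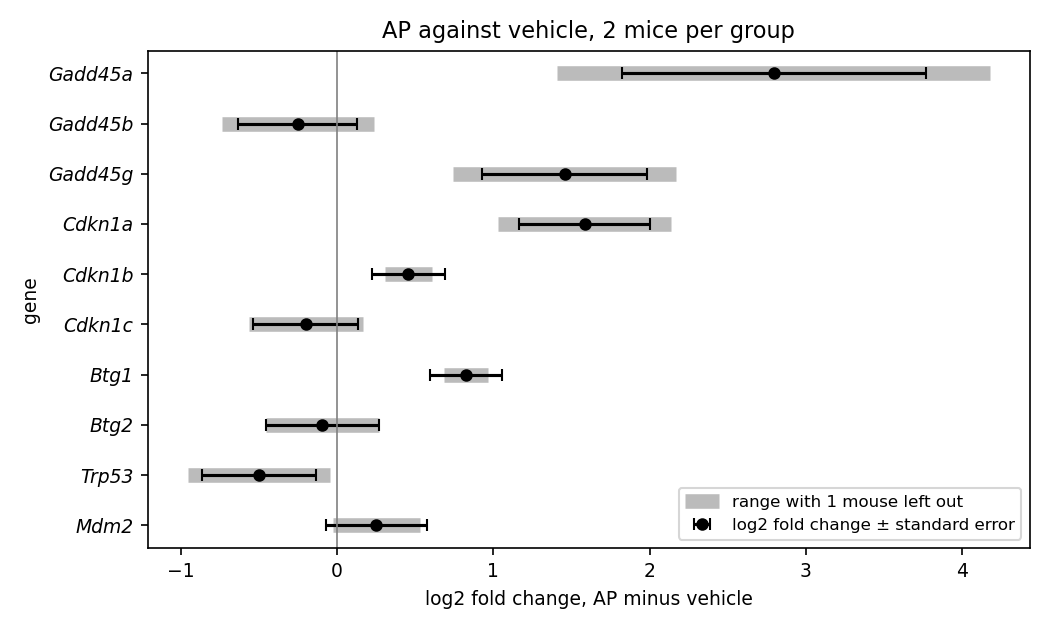
Log2 fold change of each member gene, AP minus vehicle (horizontal axis), with its standard error from limma as a black bar and the range reached when 1 mouse is left out as a gray band. The bands of Gadd45a, Gadd45g, Cdkn1a, Cdkn1b and Btg1 stay above 0, as they must where both AP mice lie above both vehicle mice. The band of Gadd45a runs from 1.41 to 4.18.

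Which mouse was higher within the AP group split the members evenly. AP replicate 2 was above AP replicate 1 for Gadd45a, Cdkn1a, Btg2, Trp53 and Mdm2, and below it for Gadd45b, Gadd45g, Cdkn1b, Cdkn1c and Btg1. Over all named genes AP replicate 2 was the higher in 48.8%. Of 17 measured ATF4 targets 14 were higher in AP replicate 2, with a median difference between the AP mice of 1.08 on the log2 scale. That order was not particular to ATF4 targets. All 10 brown adipocyte markers were higher in AP replicate 2, by a median of 0.35, and so were all 4 measured erythroid markers, by 0.43. Of 11 measured FOXO targets, a list of genes that insulin and fasting control, 8 were higher in AP replicate 1, with a median of -0.52 for AP replicate 2 minus AP replicate 1. All 12 muscle markers were higher in AP replicate 1 than in AP replicate 2, as was Gadd45g. In the vehicle mice all 12 were higher in replicate 2, by a median of 4.15, and Gadd45g was higher there by 0.37. The part of muscle in the Gadd45g levels was not tested in either pair of mice.

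The 5 named genes whose levels lay nearest to Gadd45a across the 4 arrays, each gene centred on its own mean, were Gdf15, Mthfd2, Cth, Slc6a9 and Extl1. The Euclidean distances of the first 4 were 0.67, 0.93, 0.99 and 1.12 on the log2 scale, and that of Extl1 is not given because it rests on vehicle signals that were not well above background, as does its place in this list. Gdf15 encodes a stress hormone that reduces appetite, Mthfd2 a mitochondrial folate enzyme, Cth the enzyme that makes cysteine from cystathionine, and Slc6a9 a glycine transporter. The log2 level of Gdf15 was -1.89 and -0.63 in the vehicle mice and 0.13 and 2.24 in the AP mice, the same order of the 4 mice as for Gadd45a. Mthfd2 was at -1.77 and -1.46 with vehicle and at -0.98 and 1.61 with AP. Because these genes were picked for nearness to Gadd45a, a like order of the mice is favored by the choice and is no separate result. Extl1 was not well above background with vehicle and was at least 2.83-fold higher with AP (by limma over all probes, adjusted p = 0.80). In that bound the dimmer group is set to the lowest signal well above background on each of its arrays, and a group mean is taken over both mice.

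**Figure D3:**
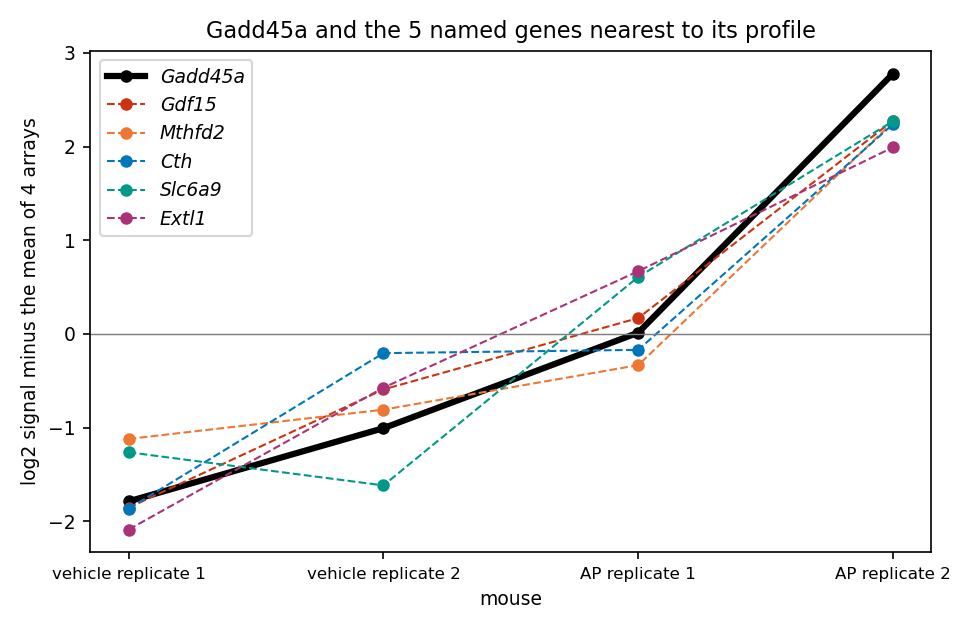
Log2 signal of Gadd45a (thick black line) and the 5 named genes nearest to it, each minus its own mean over the 4 arrays (vertical axis), in each mouse (horizontal axis). Lines join the values of a gene and have no meaning between mice. AP replicate 2 is the highest mouse for all 6 genes, which the choice of genes by nearness to Gadd45a favors. For Gadd45a this mouse stands 2.77 above AP replicate 1.

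The nearest genes of the other 2 members with at least 2-fold differences were looked up after their values had been seen. Nearest to Gadd45g were Derl3, a factor for the disposal of misfolded ER proteins, Nupr1l, the amino acid transporter Slc43a1, Cnbd2 and the RNA gene Snhg16, at distances of 0.11 to 0.39. Derl3 was at -3.29 and -3.05 with vehicle and at -1.08 and -2.42 with AP, so AP replicate 1 was highest as for Gadd45g. Nearest to Cdkn1a were Hsd17b14, Osbp2, 1700017B05Rik, the acyl-CoA thioesterase Acot2 and Fam228b, at distances of 0.19 to 0.31. Acot2 was at 1.17 and -0.12 with vehicle and at 1.74 and 2.05 with AP, with vehicle replicate 2 lowest as for Cdkn1a. The 3 sets of 5 genes shared no gene. With the 3 members 1.54 to 3.26 apart on the same scale, no gene could be this near to 2 of them. Likewise, a match of Derl3 to Gadd45g or of Acot2 to Cdkn1a in the order of the mice is favored by the choice.

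Other targets of p53 included genes on either side. Of 28 listed genes 24 were measured, and 15 of them were higher and 9 lower with AP, with a median log2 fold change of 0.054. The median was 0.030 without AP replicate 2 (12 higher, 12 lower), 0.098 without vehicle replicate 2, 0.22 without vehicle replicate 1 (18 higher, 6 lower) and 0.27 without AP replicate 1 (17 higher, 7 lower). Both AP mice were above both vehicle mice in 8 of the 24 and below in 1, against 20.1% and 17.3% of named genes. An unadjusted limma p under 0.05 was reached by 3 of the 24, all higher with AP, against 3.78% of named genes in that direction and 2.26% in the other. They were Trp53inp1, Sesn2 and Ddb2. Trp53inp1, which promotes autophagy and cell death, was at 1.43 and 1.77 with vehicle and 2.50 and 3.19 with AP, and the log2 fold change was 1.25 ± 0.32 (SE). Sesn2, an inhibitor of mTORC1 that ATF4 is also known to control, was at 1.43 and 1.46 with vehicle and 2.23 and 2.79 with AP, and the log2 fold change was 1.07 ± 0.27 (SE). The DNA repair gene Ddb2 was at -0.27 and -0.30 with vehicle and 0.59 and 0.23 with AP. The AP mice lay above the vehicle mice in these 3 genes and in Perp, Rrm2b, Polk, Dcxr and Ercc5, whose log2 fold changes were 0.054 to 0.36. The gene below was Phlda3, at 8.62 and 8.05 with vehicle and 7.56 and 7.85 with AP. Of 14 measured relatives and regulators of p53, 8 were higher and 6 lower, none with an unadjusted p under 0.05, and their median was 0.025 (0.035 to 0.10 when each mouse was left out).

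The kinases that GADD45 proteins bind or act through were 14 genes of the p38 and JNK cascades. Of these 6 were higher and 8 lower with AP, with a median log2 fold change of -0.078, which ran from -0.10 without AP replicate 2 to 0.087 without vehicle replicate 2. Map2k7, which encodes the JNK kinase MKK7, was the only gene of the 14 with an unadjusted limma p under 0.05, against 6.04% of named genes. It was at -2.30 and -2.55 with vehicle and 0.55 and -1.39 with AP, so that AP replicate 1 stood well above AP replicate 2, and its log2 fold change was 2.0 ± 0.68 (SE). Map3k4, the kinase that GADD45 proteins bind, overlapped between groups at 4.25 and 3.86 with vehicle and 4.16 and 3.78 with AP. Mapk14, which encodes p38α, was at 4.12 and 3.69 with vehicle and 3.68 and 3.31 with AP, and both AP mice lay below, though vehicle replicate 2 and AP replicate 1 nearly met. Of 10 measured genes for DNA demethylation and repair 6 were higher and 4 lower, with a median of 0.076, which ran from -0.015 without AP replicate 2 to 0.15 without vehicle replicate 1. None of them had an unadjusted p under 0.05.

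The other CDK inhibitors and pocket proteins (7 measured of 8) had a median log2 fold change of -0.13, with 2 higher and 5 lower. The BTG/TOB relatives and CCR4-NOT subunits (14 of 14) had a median of -0.022, with 7 higher and 7 lower. When each mouse was left out, the first median ran from -0.11 without AP replicate 1 to 0.11 without vehicle replicate 1, and the second from -0.064 to 0.066 with the same mice left out. Neither list held a gene with an unadjusted limma p under 0.05. Of the cyclins and CDKs that these inhibitors act on, 8 of 12 were measured, 2 of them higher and 6 lower with AP, with a median of -0.23, which ran from -0.40 without vehicle replicate 1 to -0.041 without vehicle replicate 2. The mitotic cyclin gene Ccnb1 was at -2.52 and -2.46 with vehicle and was not well above background with AP, at least 2.32-fold lower (by limma over all probes, adjusted p = 0.80). Ccnb2 was at -2.77 and -0.40 with vehicle and -3.26 and -3.32 with AP, with vehicle replicate 2 far above the other 3 mice. The Ccnb2 probe was dim and well above background on only 3 of the 4 arrays.

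Genes of dividing cells were all lower with AP on average: 10 of 10 measured proliferation markers of 14 listed, with a median log2 fold change of -0.58. In 9 of the 10, vehicle replicate 2 was above vehicle replicate 1, by a median of 1.61 over the 10. Without vehicle replicate 2, 6 of the 10 were higher with AP and the median was 0.085, while it was -1.11 without vehicle replicate 1, -0.88 without AP replicate 1 and -0.37 without AP replicate 2. Vehicle replicate 2 was also the mouse with the lowest Cdkn1a and the highest leukocyte sum, and the part of these cells in the lower markers or in Cdkn1a was not tested.

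The ATF4 targets, which the ISR is known to induce, were higher with AP in nearly every measured gene. Of 17 measured genes of 18, 16 were higher with AP, against 51.4% of named genes, with a median log2 fold change of 1.08. Both AP mice were above in 9, against 20.1% of named genes. An unadjusted limma p under 0.05 was reached by 8, all higher with AP, against 3.78% of named genes in that direction. The median ran from 0.72 without AP replicate 2 to 1.43 without AP replicate 1, with 14 or 15 genes higher. They included Trib3 with 4.58 ± 0.63 (SE), Chac1 with 3.43 ± 0.70, Gdf15 with 2.45 ± 0.84 and Ddit3 with 1.61 ± 0.45. Ddit3, which encodes CHOP and bears the alias Gadd153, is no relative of the GADD45 proteins by sequence. It was at 2.18 and 1.86 with vehicle and 3.03 and 4.22 with AP, with AP replicate 2 the highest as for Gadd45a. FOXO targets had a median of 0.48 over 11 measured genes of 12, with 8 higher. Of the 11, 3 had an unadjusted limma p under 0.05, all higher with AP, against 3.78% of named genes in that direction. The FOXO median was 0.20 without AP replicate 1, 0.30 without vehicle replicate 1, 0.80 without AP replicate 2 and 1.27 without vehicle replicate 2. The median of the muscle markers ran from -1.26 without vehicle replicate 1 to 2.99 without vehicle replicate 2, and their part in the FOXO list was not tested. The 3 genes under that p were Klf15 (1.89 ± 0.22), Fbxo32 (1.31 ± 0.33) and Irs2 (1.1 ± 0.37). Klf15, a fasting and glucocorticoid factor, was at 0.52 and 0.69 with vehicle and 2.39 and 2.59 with AP. Immediate early genes (15 of 16) had a median of -0.41, with 11 lower. Both AP mice were below in 4 of the 15 and above in 0, against 17.3% and 20.1% of named genes. An unadjusted limma p under 0.05 was reached by 1, lower with AP, against 2.26% of named genes in that direction. Their median was -0.095 without vehicle replicate 1, -0.27 without AP replicate 1, -0.28 without vehicle replicate 2 and -0.32 without AP replicate 2.

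**Figure D4:**
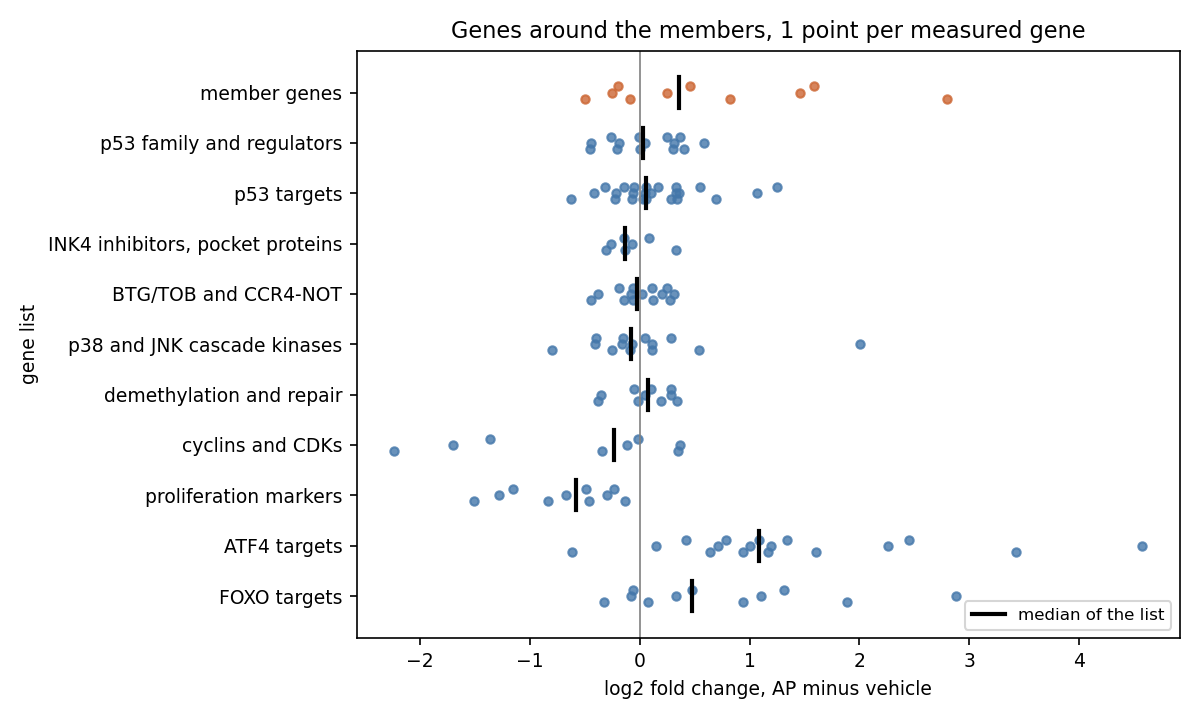
Log2 fold change, AP minus vehicle (horizontal axis), of each measured gene in the list of members (orange) and in 10 lists of related genes (blue), with the median of each list as a black bar. The median is 0.35 for the members, 0.054 for p53 targets, 1.08 for ATF4 targets and -0.58 for proliferation markers.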

How the data were processed

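RNA from the BAT of 4 Tg mice was labeled with Cy3 and hybridized to one-color Agilent SurePrint G3 Mouse arrays. The authors deposited the spot intensity of each array on a linear scale, extracted with Feature Extraction 10.7.1.1 per the labels, and a table of log2 values whose normalization and centring are not given in the sources used here.

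Processed signals were scaled to the 75th percentile within an array and put on the log2 scale. Control and outlier spots were left out, spots of a probe were averaged, and a probe stayed if the vehicle pair, the AP pair or both were well above background. This left 24970 of 55681 probes for limma 3.58.1 (lmFit and eBayes, R 4.3.3) with Benjamini-Hochberg adjustment, after tests on simulated data. Probes took names by accession from a RefSeq table of GRCm38.p6 (26582 probes, 20145 genes), and array coordinates were not used. Having only 2 arrays in each group limits the precision. The limma p-values set the AP minus vehicle difference against the spread between mice of a group, which limma moderates by sharing it across probes. Alternatives covered background correction, scaling, the filter, a variance trend, the values processed by the authors, the methods' test, a replicate block, all probes of a gene and leaving out mice.

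The members and the lists were chosen with earlier results of these data known. The text names all members, up to 4 genes of each list with groups apart and a log2 fold change of at least 1 in size, and the 5 genes nearest to Gadd45a. Genes outside this rule (Gadd45g and Cdkn1a neighbors, Ucp1, Ddb2, Phlda3, Perp, Rrm2b, Polk, Dcxr, Ercc5, Map3k4 and Mapk14) were named after their values were seen. So were Elovl3 and Dio2. Of the rule's genes, Lep, a white fat hormone, is not part of the growth-arrest results and had a log2 fold change of -1.38. The remaining cell type lists measured 10 of 10 brown adipocyte, 8 of 8 endothelial, 4 of 7 white adipocyte and 4 of 5 erythroid markers, with medians of 0.074, -0.067, 0.0014 and -0.42. All arrays shared 1 slide and 1 scan, and the array positions of the groups differed, so position and treatment cannot be told apart.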

Additional observations from a re-analysis of the deposited data

How the results depend on the processing

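No probe had an adjusted p under 0.05 in the comparison of AP with vehicle by limma or under any of 14 alternatives. The number with an unadjusted limma p under 0.05 was 1515, against 2610 with no filter on dim probes, which tests more probes, and 1003 to 2177 when each mouse was left out (1003 without AP replicate 1). The methods' t-test gave 1478. With the replicate number as a block it was 1227, and 1567 with the crossed pairing, which was added after the data were seen because deviations of same-numbered mice correlated at -0.13, and the numbers are not stated to pair the mice. Leaving out a mouse turned the sign of 4 members. Their log2 fold changes then ranged from -0.74 to 0.23 for Gadd45b and from -0.56 to 0.17 for Cdkn1c. The range was -0.45 to 0.27 for Btg2 and -0.027 to 0.53 for Mdm2. The other 6 kept their sign. For Gadd45a, Gadd45g, Cdkn1a, Cdkn1b and Btg1 this was fixed in advance, because both AP mice lay above both vehicle mice. With all mice no alternative turned a member's sign. Normexp gave 2.06 for Gadd45a and -0.12 for Trp53, and the log2 values of the authors 2.63 and -0.67. The normexp alternative used the median spot signal, the column held here. Slide and scan could not be run as a block with 1 slide and 1 scan. The lone mouse left in a group is assumed to vary like the other group.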
